A study of Mus musculus with 12 samples.

Results

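Transcripts for the enzymes that oxidise fatty acids in mitochondria and peroxisomes, and for ketone body synthesis, were examined in livers in which ChREBP, the glucose-responsive transcription factor encoded by Mlxipl, had been overexpressed. The genes were taken by name from a list of 37. For 36 of them, among 19938 genes in all, the array held a row annotated with that gene symbol alone, and the brightest such row stood for the gene. Cpt1b, the muscle form of carnitine palmitoyltransferase, lay only on a row with several symbols and was not analysed here. Of the 36, 20 encode mitochondrial proteins, 11 peroxisomal proteins and 4 proteins found in both compartments (Crat, Eci2, Ech1 and Amacr). The last, Vnn1, encodes vanin 1, a pantetheinase anchored at the cell surface that releases the coenzyme A precursor pantothenate.

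Livers came from 6 mice given an adenovirus for ChREBP and, as controls, from 6 mice given an adenovirus for GFP. All were fed male C57BL/6J mice with a labelled age of 8 weeks, injected in the tail vein and studied 3 weeks later, with 1 array per whole liver. Which species and isoform of ChREBP the virus encodes, and under which promoter, is not given in the sources used here, and the array does not tell vector transcript from that of the mouse gene. Values are RMA values on the log2 scale, and each difference is ChREBP minus GFP.

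Fatty acids enter mitochondria as carnitine esters and are shortened there by repeated rounds of dehydrogenation, hydration, a further dehydrogenation and thiolysis. Peroxisomes take very long chain, branched chain and dicarboxylic acids and the side chain of bile acid precursors, and pass the shortened products on as carnitine esters. In the fasted liver much of the acetyl-CoA becomes ketone bodies. The nuclear receptor PPARalpha is a known activator of many of these genes, whereas ChREBP is known for glycolysis and for the synthesis of fatty acids.

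Promoter windows from 250 bases before to 50 bases after the transcription start were found for 28 of the 36 genes in the RefSeq tables of GRCm38.p6, with 31 windows among them. Printed here are the windows of both peroxisomal enzymes of the oxidation spiral that were at least 1.5-fold higher in ChREBP livers (Acaa1b and Ehhadh), that of the near-identical neighbour of Acaa1b (Acaa1a), and the stretch shared by the windows of Hadha and Hadhb, which rose together. Acaa1b lies on the minus strand at chr9:119157044-119157343, Acaa1a on the plus strand at chr9:119341044-119341343, and Ehhadh on the minus strand at chr16:21787785-21788084. The starts of Hadha and Hadhb point away from each other with 272 bases between them, and their windows share chr5:30155003-30155230, printed on the plus strand. Capitals mark the GC box GGGCGG and the box CCAAT on either strand, and each sequence runs 5′ to 3′.
Acaa1b promoter: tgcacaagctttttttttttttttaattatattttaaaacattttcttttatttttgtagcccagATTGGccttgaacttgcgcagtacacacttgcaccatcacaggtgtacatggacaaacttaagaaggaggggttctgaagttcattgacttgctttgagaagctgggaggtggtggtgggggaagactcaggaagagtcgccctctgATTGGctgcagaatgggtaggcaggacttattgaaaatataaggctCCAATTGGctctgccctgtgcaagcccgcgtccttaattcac
Acaa1a promoter: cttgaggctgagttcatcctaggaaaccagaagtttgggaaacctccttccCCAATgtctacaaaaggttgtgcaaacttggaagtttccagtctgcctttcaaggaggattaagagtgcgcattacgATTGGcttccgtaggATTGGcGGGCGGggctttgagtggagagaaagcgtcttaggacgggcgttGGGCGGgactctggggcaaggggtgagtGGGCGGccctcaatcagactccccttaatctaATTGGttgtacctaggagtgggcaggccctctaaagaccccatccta
Ehhadh promoter: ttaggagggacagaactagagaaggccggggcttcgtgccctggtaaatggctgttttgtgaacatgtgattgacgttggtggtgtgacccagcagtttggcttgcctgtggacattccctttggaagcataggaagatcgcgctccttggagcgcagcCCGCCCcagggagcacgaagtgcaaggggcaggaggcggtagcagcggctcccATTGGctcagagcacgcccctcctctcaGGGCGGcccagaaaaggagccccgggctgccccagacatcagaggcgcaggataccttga
Hadha and Hadhb shared promoter: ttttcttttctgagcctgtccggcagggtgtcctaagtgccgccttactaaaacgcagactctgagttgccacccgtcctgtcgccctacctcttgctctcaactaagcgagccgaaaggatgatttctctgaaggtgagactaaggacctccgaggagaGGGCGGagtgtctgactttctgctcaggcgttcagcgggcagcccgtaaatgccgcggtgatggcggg

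The Acaa1a window holds 3 GC boxes and the Acaa1b window 0, and both hold 4 CCAAT boxes, of which 2 overlap in Acaa1b. The Ehhadh window holds 2 GC boxes and 1 CCAAT box, and the stretch between Hadha and Hadhb 1 GC box. On either strand GGGCGG stood in the windows of 22 of the 28 genes, against 35.7% of all 32851 windows, and CCAAT in those of 11, against 37.4%. The E-box CACGTG stood in 0 of the 28, against 7.15% of all windows. The hexamer AGGTCA, read by many nuclear receptors, was found in 5 (Acadm, Acadvl, Cpt1a, Echs1 and Scp2), against 16.3% of all windows, and its direct repeat with 1 base between, which contains the hexamer, in 0, against 0.0396%. A gene was counted if any of its windows held the match, whereas the shares of all windows count each window singly, so the units differ. These matches describe the letters of the windows and show no binding.

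Mlxipl had values of 10.74, 10.93 and 10.96 (lowest, median, highest) in ChREBP livers, against 9.07, 9.27 and 9.61 in GFP livers, a difference of 1.57 (SE 0.09; exact two-sided permutation test, p = 0.00216). Markers of other tissues differed among arrays. The mean level of 7 pancreatic acinar markers was 12.24 on ChREBP 4 and 12.03 on ChREBP 5, against at most 7.50 on the other arrays. That of 6 skeletal muscle markers was 9.63 on ChREBP 6 and 9.05 on GFP 6, against at most 7.10 elsewhere, and 5 adipocyte markers were highest on ChREBP 6 (6.63), GFP 6 (6.50) and GFP 4 (6.49). Hepatocyte markers averaged 12.5 to 12.7 in ChREBP livers and 12.8 to 13.0 in GFP livers, and 6 of the 8 fell while 0 rose (median difference -0.25). All 5 T and NK cell markers rose, 3 macrophage markers rose and 4 fell of 8, and 0 of 4 stellate and 0 of 4 endothelial markers passed the test. In whole liver, fewer cells of a type and less RNA per cell cannot be told apart.

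ChREBP and GFP livers were compared to learn which of these transcripts an excess of ChREBP leaves higher or lower. Of the 36 genes, 21 reached an adjusted p under 0.05 in limma's test (58.3%, against 27.0% of all genes), with 11 higher in ChREBP livers (against 13.3% of all genes) and 10 lower (against 13.7%). The 2 groups of arrays did not overlap in 17 of the 36 genes (47.2%, against 15.2% of all genes). Brighter genes passed more often in general, since 34.9% of the genes passed once the 25% dimmest were left out, a step that kept all 36. The typical difference was small, with a median size of 0.18 (0.11 over all genes), and the median difference was -0.04, as it was over all genes. A fold of 1.5 at an unadjusted p under 0.05 was reached by 6 of the 36 genes (16.7%, against 5.70% of all genes). These were Vnn1, Abcd2, Crat, Acaa1b and Ehhadh, all higher in ChREBP livers, and Acadsb, which was lower.

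**Figure D1:**
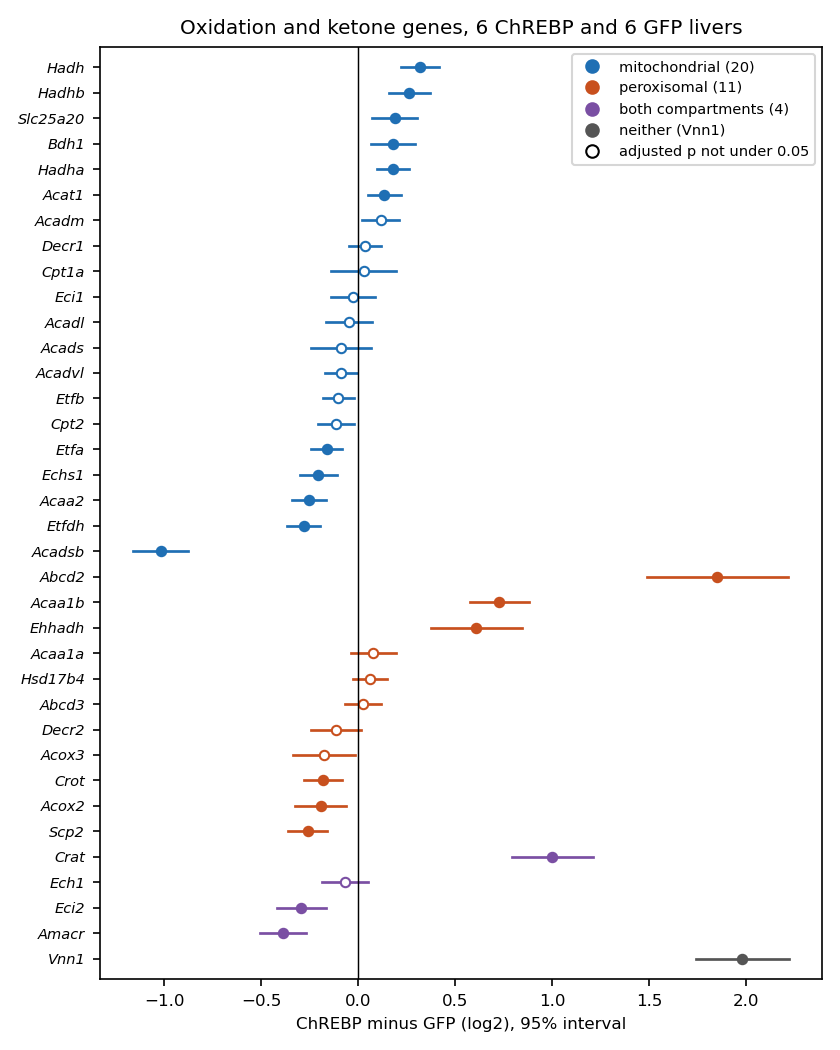
Difference between 6 ChREBP and 6 GFP livers (log2, x axis) for the 36 genes, grouped and coloured by compartment, with bars for the 95% interval from limma and filled points for an adjusted p under 0.05. Except for Acadsb at -1.02, the mitochondrial genes lie between -0.28 and 0.32, whereas Abcd2, Acaa1b and Ehhadh among the peroxisomal genes, Crat and Vnn1 lie at 0.61 or above.

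Among the 36 genes, the mitochondrial and the peroxisomal ones passed the test at like rates in the main fit. That likeness depended on the fit. With trended moderation and with the unmoderated fit, 15 of the 20 mitochondrial and 6 of the 11 peroxisomal genes passed, against 26.9% and 25.4% of all genes. The rises of at least 1.5-fold lay outside the genes placed in mitochondria alone, and Crat, at 2.00-fold, belongs to both compartments. On the further lists below, such a rise was found in 3 of 19 other mitochondrial acyl-CoA enzymes. It was found in 1 of 25 other peroxisomal enzymes and membrane proteins. Over all 19938 genes, 817 rose by at least 1.5-fold at an unadjusted p under 0.05. Of the 20 mitochondrial genes, 11 passed (55.0%, against 27.0% of all genes), 6 higher and 5 lower, with a median size of 0.15. Of the 11 peroxisomal genes, 6 passed (54.5%), 3 higher and 3 lower, with a median size of 0.18. A fold of 1.5 was reached by 1 of the 20 mitochondrial genes (Acadsb, lower) and by 3 of the 11 peroxisomal genes (all higher). These shares are 5% and 27.3%, against 5.70% of all genes, so the mitochondrial share is near that of all genes. Of the 3 peroxisomal genes, Ehhadh was at 1.47-fold without ChREBP 4. With the 4 genes of both compartments counted as peroxisomal, 9 of 15 passed, 4 higher and 5 lower. A difference between the compartments was not tested, as the genes are not replicates. The split into higher and lower genes depended on the scaling, since with each array centred on its median the split was 3 higher and 8 lower for the mitochondrial genes and 3 higher and 5 lower for the peroxisomal ones, and over all genes 2194 higher and 5595 lower in place of 2645 and 2730. The split of the 36 genes was then 8 higher and 15 lower. With quantile normalization repeated, it was 5 higher and 2 lower for the peroxisomal genes, 13 and 8 for the 36 genes and 2555 and 3580 over all genes.

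Among the genes of the carnitine shuttle, the acetyl-carrying Crat was the one that changed strongly. Crat, carnitine acetyltransferase, which moves short acyl groups between coenzyme A and carnitine, had values of 8.66, 8.72 and 8.97 in ChREBP livers, against 7.32, 7.88 and 7.90 in GFP livers. Every ChREBP array lay above every GFP array, and the difference was 1.00 (SE 0.10, adjusted p = 3.87e-06), or 2.00-fold. Cpt1a, which forms acylcarnitine at the outer membrane and is the step inhibited by malonyl-CoA, had values of 10.32, 10.49 and 10.71 in ChREBP livers, against 10.20, 10.50 and 10.64 in GFP livers. The groups overlapped almost fully, with a difference of 0.03 (95% interval -0.14 to 0.20, adjusted p = 0.82). Its sign was negative without ChREBP 4 (-0.01), without GFP 2 (-0.03) and with median centring (-0.03). Cpt2, which returns the acyl group to coenzyme A inside the mitochondrion, differed by -0.11 (adjusted p = 0.065). It passed in 4 alternatives (adjusted p 0.0090 to 0.043). These were median centring (-0.17), the trended and the unmoderated fit, and the fit without ChREBP 4 (-0.13). Slc25a20, the carnitine-acylcarnitine carrier of the inner membrane, rose by 0.19 (adjusted p = 0.019), a call lost with median centring (0.13, adjusted p = 0.073). Crot, the peroxisomal carnitine octanoyltransferase that exports shortened chains, had values of 12.03, 12.18 and 12.21 in ChREBP livers, against 12.25, 12.33 and 12.41 in GFP livers. It fell by 0.18 (adjusted p = 0.0085) with no overlap between the groups, and with quantile normalization repeated the difference was -0.11 and missed the threshold (adjusted p = 0.057).

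Of the 5 mitochondrial acyl-CoA dehydrogenases, 1 passed the test. Acadsb, which acts on short branched chains and is known for its step in isoleucine breakdown, had values of 8.84, 8.99 and 9.25 in ChREBP livers, against 9.92, 10.05 and 10.16 in GFP livers. Every ChREBP array lay below every GFP array, with a difference of -1.02 (SE 0.07, adjusted p = 1.03e-07), a level 2.03-fold lower. The dehydrogenases for straight chains stayed within 0.12 of the GFP mean. Acadm, for medium chains, differed by 0.12 (adjusted p = 0.070, and 0.030 without GFP 3), Acadvl, for very long chains, by -0.09 and Acads, for short chains, by -0.09. In all, Acadm passed in 4 alternatives (adjusted p 0.0040 to 0.037) and Acadvl in 3 (0.017 to 0.046). The trended and the unmoderated fit were among them for both genes. Acadl, for long chains, had values of 10.83, 10.86 and 11.10 in ChREBP livers, against 10.86, 10.94 and 11.08 in GFP livers, a difference of -0.05 (95% interval -0.17 to 0.07). Its highest ChREBP value came from ChREBP 6, the array with the highest means of skeletal muscle and brown adipocyte markers. The part of these tissues in the value was not tested.

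All 5 genes of the later mitochondrial steps passed the test, and they went in different directions. Hadh, the 3-hydroxyacyl-CoA dehydrogenase for medium and short chains, had values of 10.48, 10.55 and 10.61 in ChREBP livers, against 10.14, 10.25 and 10.33 in GFP livers. It rose by 0.32 (SE 0.05, adjusted p = 1.15e-04), and the groups did not overlap. Hadha and Hadhb encode the subunits of the trifunctional protein, which carries out the last 3 steps for long chains at the inner membrane. Hadha had values of 11.21, 11.29 and 11.34 in ChREBP livers, against 11.04, 11.10 and 11.15 in GFP livers, and rose by 0.18 (SE 0.04, adjusted p = 0.0032). Hadhb had values of 10.72, 10.85 and 11.02 in ChREBP livers, against 10.55, 10.59 and 10.64 in GFP livers, and rose by 0.26 (SE 0.05, adjusted p = 0.0011). In both genes, which share the promoter stretch printed above, every ChREBP array lay above every GFP array, and a further row for Hadhb gave a like difference of 0.26.

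The genes for the hydratase and the thiolase of the matrix fell. Acaa2, the mitochondrial 3-ketoacyl-CoA thiolase, had values of 11.79, 11.90 and 11.96 in ChREBP livers, against 12.10, 12.14 and 12.21 in GFP livers, a fall of 0.25 (SE 0.04, adjusted p = 3.55e-04) without overlap. Echs1, the short chain enoyl-CoA hydratase, fell by 0.21 (adjusted p = 0.0032), with overlap of the groups through GFP 6.

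Of the 5 genes for enzymes that deal with double bonds, 1 passed the test. Eci2, an enoyl-CoA isomerase of mitochondria and peroxisomes, had values of 10.41, 10.55 and 10.69 in ChREBP livers, against 10.66, 10.86 and 10.97 in GFP livers. It fell by 0.29 (SE 0.06, adjusted p = 0.0019), with the highest ChREBP array above the lowest GFP array. Eci1, the mitochondrial isomerase, had values of 9.14, 9.33 and 9.44 in ChREBP livers, against 9.29, 9.31 and 9.43 in GFP livers, a difference of -0.03 (95% interval -0.14 to 0.08), which was 0.01 without ChREBP 1. Decr1 and Decr2, the 2,4-dienoyl-CoA reductases of mitochondria and peroxisomes, differed by 0.04 and -0.11, and Ech1, a dienoyl-CoA isomerase, by -0.07, and none of these passed the test. With median centring Decr2 passed (-0.17, adjusted p = 0.046).

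Of the 3 genes for the chain that takes electrons from the acyl-CoA dehydrogenases to ubiquinone, 2 passed the test and fell, and in each of the 3 the groups did not overlap. Etfdh, the membrane oxidoreductase at its end, had values of 10.62, 10.66 and 10.77 in ChREBP livers, against 10.90, 10.96 and 11.01 in GFP livers, and fell by 0.28 (SE 0.04, adjusted p = 1.17e-04). Etfa, which encodes the alpha subunit of the electron transfer flavoprotein, fell by 0.16 (adjusted p = 0.0056), a call lost with quantile normalization repeated (-0.08, adjusted p = 0.088). Etfb, which encodes the beta subunit, had values of 11.780, 11.858 and 11.895 in ChREBP livers, against 11.916, 11.950 and 11.998 in GFP livers. Its difference of -0.10 missed the threshold (adjusted p = 0.054). It passed in 5 alternatives, with differences of -0.16 to -0.10 and adjusted p 0.0050 to 0.048. These were median centring, the filter on dim genes, and the trended, unmoderated and weighted fits. With quantile normalization repeated the difference was -0.0058 (adjusted p = 0.92). The hepatocyte markers had a median difference of -0.25 in the same comparison. The part of hepatocyte content in these falls, and in those of the other genes that were lower, was not tested.

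**Figure D2:**
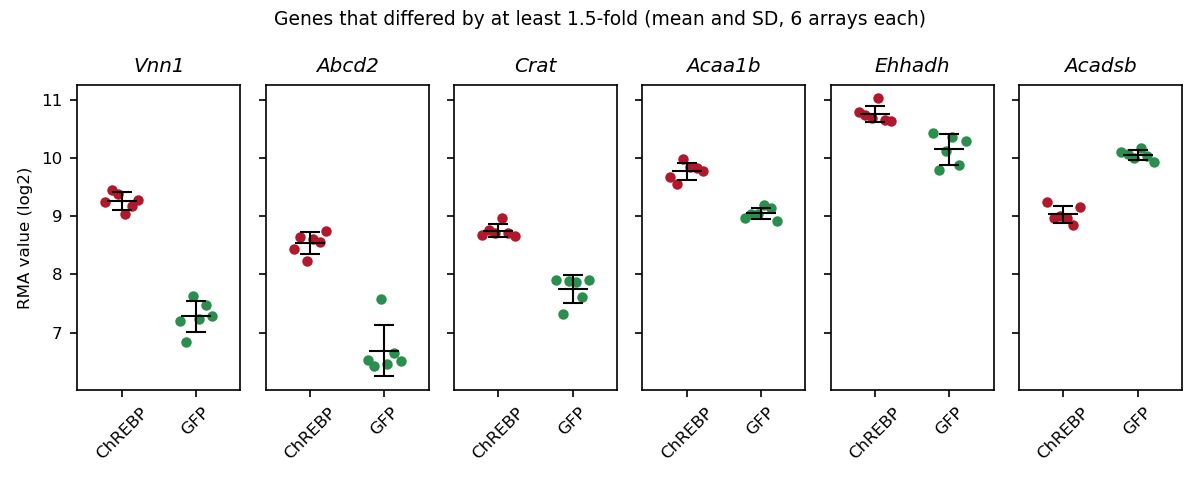
RMA values (log2, y axis) on each of the 6 ChREBP arrays (red) and 6 GFP arrays (green) for the 6 genes that differed by at least 1.5-fold, with black bars for the mean and SD. In each gene the groups are separate, with Acadsb the 1 gene that is lower on the ChREBP arrays, and GFP 3 at 7.57 stands above the other GFP arrays in Abcd2.

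In peroxisomes the largest rise was that of a transporter. Abcd2 encodes an importer of very long chain acyl-CoA. It had values of 8.23, 8.59 and 8.75 in ChREBP livers, against 6.43, 6.51 and 7.57 in GFP livers. All ChREBP arrays lay above all GFP arrays, and the difference was 1.85 (SE 0.17, adjusted p = 2.20e-06), or 3.61-fold. The highest GFP value came from GFP 3, and without that array the difference was 2.03. Abcd2 is also known from adipose tissue. On the arrays with the highest adipocyte markers Abcd2 was 8.75 on ChREBP 6, the highest of its group, and 6.46 and 6.50 on GFP 4 and GFP 6, within the range of the other GFP arrays, and the part of adipose tissue was not tested. Abcd3, the importer known for branched chain and bile acid intermediates, had values of 11.83, 11.93 and 12.01 in ChREBP livers, against 11.85, 11.88 and 11.97 in GFP livers. The groups overlapped, and the difference was 0.03 (95% interval -0.07 to 0.12), or -0.03 with median centring. With quantile normalization repeated, Abcd3 rose by 0.12 and passed the test (adjusted p = 0.038).

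Of the genes for the bifunctional enzymes that follow the first oxidation, Ehhadh rose and Hsd17b4 missed the threshold. Ehhadh, the L-bifunctional enzyme, which hydrates and then dehydrogenates straight chains including dicarboxylic acids, had values of 10.64, 10.72 and 11.02 in ChREBP livers, against 9.79, 10.20 and 10.44 in GFP livers. The groups did not overlap, and the difference was 0.61 (SE 0.11, adjusted p = 8.21e-04), or 1.53-fold. Its highest value was that of ChREBP 4, and without that array the difference was 0.56. Hsd17b4, the D-bifunctional enzyme, which also serves branched chains and bile acid precursors, had values of 11.87, 11.97 and 12.03 in ChREBP livers, against 11.86, 11.90 and 11.91 in GFP livers, a difference of 0.06 (95% interval -0.02 to 0.15). With quantile normalization repeated, Hsd17b4 rose by 0.16 and passed the test (adjusted p = 0.0059).

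The thiolase genes of the peroxisome went both ways. Acaa1b, 1 of 2 mouse genes for peroxisomal 3-ketoacyl-CoA thiolase, had values of 9.55, 9.80 and 9.98 in ChREBP livers, against 8.91, 9.04 and 9.18 in GFP livers. It rose by 0.73 (SE 0.07, adjusted p = 3.76e-06), or 1.66-fold, without overlap. Its neighbour Acaa1a, about 184 kb away on chromosome 9, differed by 0.08 (95% interval -0.04 to 0.19). The 2 genes are closely alike in sequence, so the split of the signal between them is uncertain. Scp2, which encodes the thiolase for branched chains and bile acid precursors together with a sterol carrier protein, had values of 12.06, 12.16 and 12.27 in ChREBP livers, against 12.39, 12.41 and 12.49 in GFP livers. It fell by 0.26 (SE 0.05, adjusted p = 8.74e-04), and every ChREBP array lay below every GFP array.

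Of the 3 genes for the oxidases and the racemase of branched chains, 2 passed the test and fell. Amacr, the racemase that turns branched acyl-CoA into the form the oxidases accept, had values of 6.90, 6.98 and 7.20 in ChREBP livers, against 7.32, 7.39 and 7.47 in GFP livers, a fall of 0.39 (SE 0.06, adjusted p = 1.20e-04) without overlap. Acox2, the oxidase for the bile acid side chain, fell by 0.19 (adjusted p = 0.032), a call that was lost when any 1 of 7 arrays was left out (ChREBP 1, 5 or 6, or GFP 1, 3, 4 or 5, adjusted p 0.052 to 0.062). Acox3, an oxidase for branched chains, had values of 7.42, 7.60 and 7.73 in ChREBP livers, against 7.49, 7.79 and 7.97 in GFP livers. Its difference was -0.18 (adjusted p = 0.0997), and it passed without GFP 3 (-0.23, adjusted p = 0.019).

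Both genes of ketone body metabolism on the list passed the test with small rises, and both calls were lost with median centring (adjusted p = 0.19 for Acat1 and 0.080 for Bdh1) and with the replicate block (0.086 and 0.067). Acat1, which joins and splits acetoacetyl-CoA in mitochondria, had values of 10.53, 10.57 and 10.57 in ChREBP livers, against 10.32, 10.46 and 10.49 in GFP livers, a rise of 0.14 (SE 0.04, adjusted p = 0.024). The call was also lost without GFP 3 (0.12, adjusted p = 0.052) and without GFP 6 (0.11, adjusted p = 0.053). Bdh1, which interconverts acetoacetate and 3-hydroxybutyrate, had values of 8.39, 8.46 and 8.67 in ChREBP livers, against 8.22, 8.29 and 8.41 in GFP livers, a rise of 0.18 (SE 0.05, adjusted p = 0.021) with overlap of the groups, and with quantile normalization repeated its adjusted p was 0.092.

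Vnn1 differed most of the 36 genes. It had values of 9.03, 9.26 and 9.45 in ChREBP livers, against 6.84, 7.26 and 7.62 in GFP livers. The groups were far apart, with a difference of 1.98 (SE 0.11, adjusted p = 2.65e-08), or 3.95-fold.

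**Figure D3:**
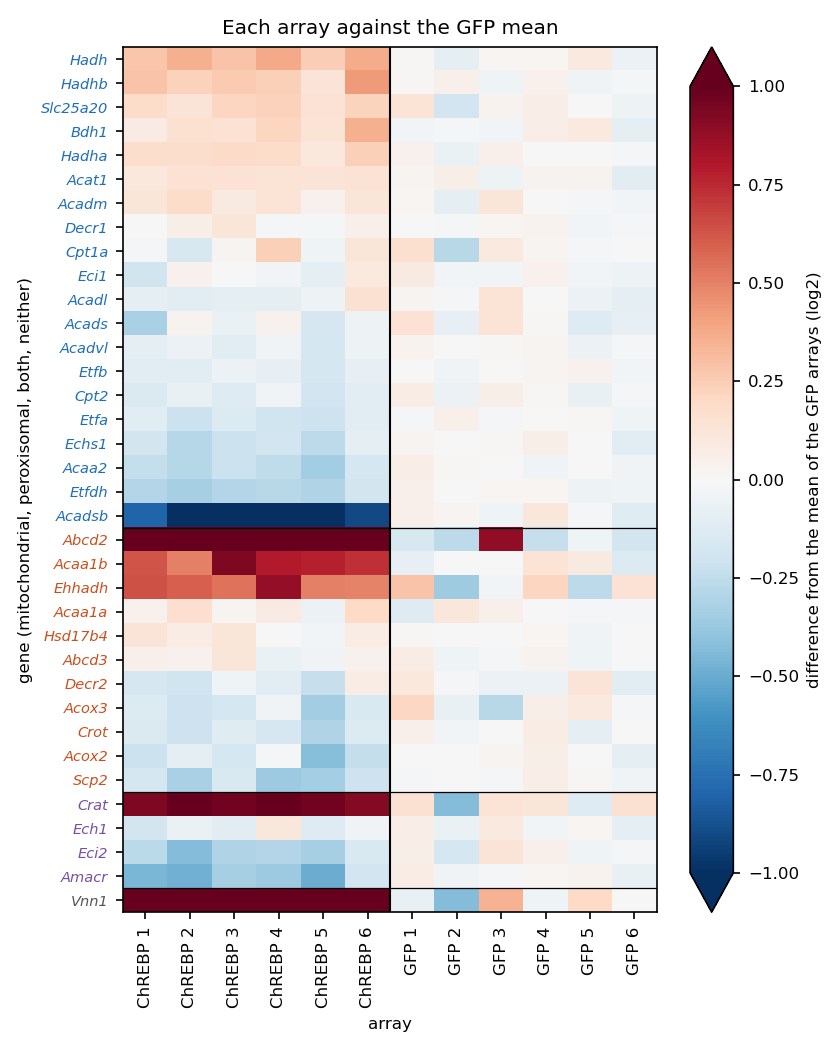
Difference of each array from the mean of the 6 GFP arrays (log2, colour, ending at -1 and 1) for the 36 genes in rows and the 12 arrays in columns, ChREBP on the left. The 6 ChREBP columns share the red of Crat, Abcd2, Acaa1b, Ehhadh and Vnn1 and the blue of Acadsb, and ChREBP 5 holds the lowest value of its group in 16 of the 36 genes.

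The arrays within a group did not rank alike in these genes. ChREBP 5 was the lowest ChREBP array in 16 of the 36 genes (44.4%, against 26.6% of all genes) and the highest in 0. ChREBP 6 was the highest in 14 (38.9%, against 13.7% of all genes), 9 of them mitochondrial. In the GFP group, GFP 6 was the lowest in 13 (36.1%, against 16.2% of all genes) and GFP 1 the highest in 12 (33.3%, against 23.2%). ChREBP 4, with the higher level of pancreatic acinar markers, was the highest in 11 (30.6%, against 24.99% of all genes) and the lowest in 4. ChREBP 5 also carried acinar markers, and ChREBP 6 and GFP 6 skeletal muscle markers. ChREBP 6, GFP 4 and GFP 6 had the highest means of brown adipocyte markers. The part of these tissues in these ranks was not tested. Without ChREBP 4 and ChREBP 5, 20 of the 36 genes passed (55.6%, against 24.9% of all genes), and without GFP 4, GFP 6 and ChREBP 6, 16 passed (44.4%, against 20.7%).

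Other genes of the same organelles, on lists drawn up by function, also went both ways. Of 25 measured among 27 other peroxisomal enzymes and membrane proteins, 3 rose and 11 fell, with a median of -0.11. Those that passed were 56.0%, against 27.0% of all genes, of which 13.3% rose and 13.7% fell. The largest falls were those of Agxt (-1.22, adjusted p = 7.07e-07), which detoxifies glyoxylate, Nudt7 (-1.20), a diphosphatase for coenzyme A, and Hao1 (-1.18), which oxidises glycolate, and Hacl1, a lyase in the breakdown of branched and hydroxylated chains, fell by 0.55. Further genes chosen after their values were seen were Phyh (-0.39), which starts the breakdown of phytanic acid, Slc27a2 (-0.28), an acyl-CoA synthetase for very long chains and bile acid precursors, and Baat (-0.51), which conjugates bile acids, all of them lower, and Acot4 (0.82) and Acot8 (0.30), peroxisomal thioesterases that were higher. Of 13 measured among 16 genes for peroxisome biogenesis, 4 rose and 2 fell, with a median of 0.10. Here 46.2% passed, against 27.0% of all genes. Pex11a, known for the division of peroxisomes, rose by 0.93 (SE 0.12, adjusted p = 4.82e-05), Pex19 by 0.38 and Pex16 by 0.26, the last 2 serving the import of membrane proteins, whereas Pex6, an ATPase of receptor export, fell by 0.23.

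**Figure D4:**
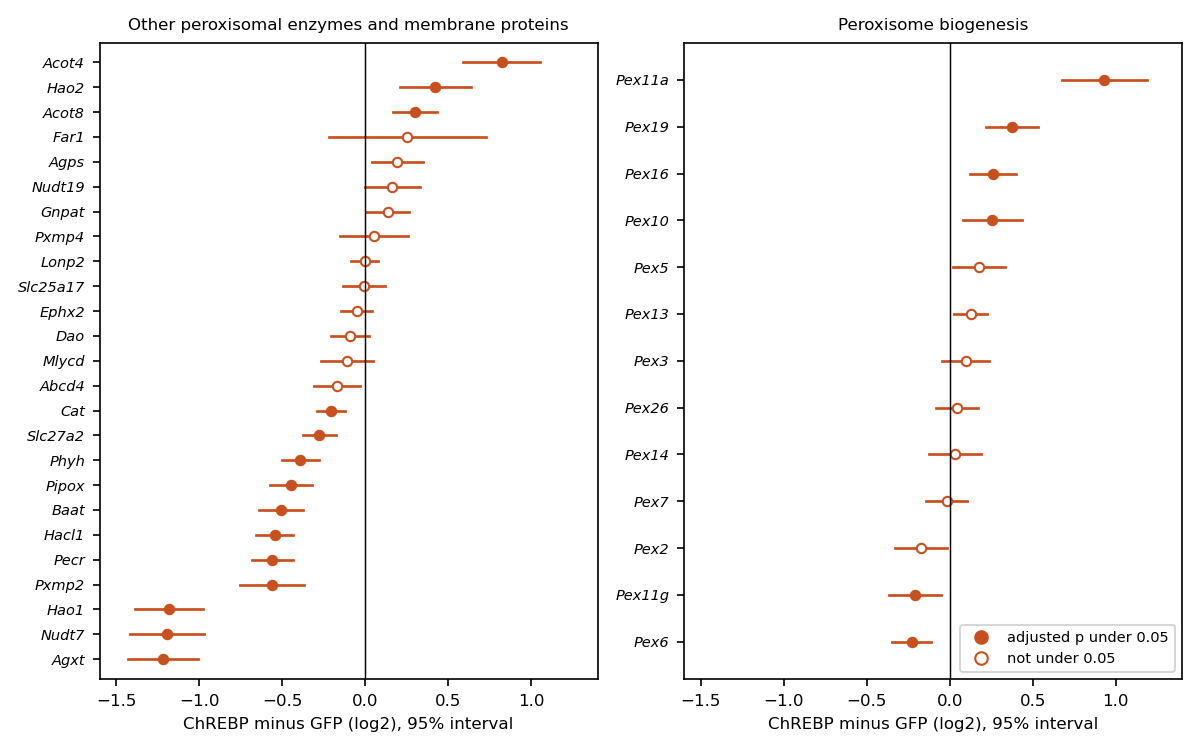
Difference between 6 ChREBP and 6 GFP livers (log2, x axis) for 25 other peroxisomal enzymes and membrane proteins (left) and 13 genes for peroxisome biogenesis (right), with bars for the 95% interval and filled points for an adjusted p under 0.05. On the left 11 genes fell and 3 rose, and on the right 4 rose and 2 fell, with Pex11a at 0.93 the highest. Over all genes 13.3% rose and 13.7% fell.

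Of 19 other mitochondrial acyl-CoA enzymes, 4 rose and 6 fell (52.6% passed, against 27.0% of all genes). The thioesterases Acot9 (1.12) and Acot2 (0.76) rose, whereas Acsm1 (-0.94), a medium chain acyl-CoA synthetase, and Pccb (-0.55), a subunit of propionyl-CoA carboxylase, fell. Of 7 measured among 8 genes for the supply of carnitine and malonyl-CoA, 2 rose and 1 fell (42.9%, against 27.0%). Acaca, which makes malonyl-CoA for fatty acid synthesis, rose by 1.70 (SE 0.10), and Slc22a5, the carnitine importer, by 0.48, while Aldh9a1, an enzyme of carnitine synthesis, fell by 0.31. Acacb, whose malonyl-CoA is known to inhibit Cpt1a, differed by 0.19 (adjusted p = 0.078).

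Of 6 measured among 9 other ketone body genes, 3 rose and 1 fell (66.7% passed, against 27.0% of all genes). The monocarboxylate transporter genes Slc16a7 and Slc16a1 rose by 1.01 and 0.49 and Aacs, acetoacetyl-CoA synthetase, by 0.31, whereas Bdh2, a cytosolic dehydrogenase, fell by 1.02. Of 17 measured among 18 genes for PPARalpha and its targets outside oxidation, 7 rose and 1 fell, with a median of 0.26. Those that passed were 47.1%, against 27.0% of all genes. Cd36, a fatty acid uptake receptor, rose by 1.99 (SE 0.12), Cyp4a14, a fatty acid hydroxylase, by 1.51, Mgll, monoacylglycerol lipase, by 0.52 and Plin2, a lipid droplet coat protein, by 0.47. The genes named next were chosen after their values were seen. Creb3l3, the 1 gene that fell, was lower by 0.35 (adjusted p = 9.45e-04), and Ppara itself differed by -0.0044 (adjusted p = 0.97). The 9 genes that missed the threshold, Ppara among them, differed in both directions, such as Angptl4 (-0.24) and Slc25a47 (0.29).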

How the data were processed

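Whole livers of 6 ChREBP and 6 GFP mice were profiled on Affymetrix mouse gene arrays after Nugen amplification. The deposited values are on the log2 scale. The submitters' processing notes name RMA, which corrects background, quantile-normalizes arrays and summarises probes, and Partek, without versions. The methods given for arrays concern Phf2 and only guided the choice of test. The table holds 35556 rows, with array medians of 5.96 to 6.05, and 21789 rows carry 1 gene symbol in the platform annotation. Symbols were updated through Entrez IDs (21698 rows matched) in the RefSeq table of GRCm38.p6, and the brightest row per gene was kept, giving 19938 genes. Without probe intensities no gene was called absent, and the number of arrays limits the precision. Levels of different genes are not comparable on these arrays.

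The test was that of limma 3.58.1 (lmFit, then eBayes) under R 4.3.3, two-sided and without covariates. P-values were adjusted by Benjamini-Hochberg over all 19938 genes, with 0.05 as the threshold. Mlxipl was tested by exact permutation over 924 assignments in Python 3.11.15 with scipy 1.17.1. The procedure was tested on simulated data. The genes and lists were chosen with earlier results of these data known. Values by array are given for genes at least 1.5-fold apart and for the genes with the largest and smallest difference of each role, and of each further list up to 4 genes with the smallest p. Alternatives were other scalings, a filter on dim genes, the mean over rows of a gene, trended, weighted and unmoderated fits, a replicate block, and arrays left out. Same-numbered arrays of the 2 groups deviated together weakly at most (correlations -0.06 to 0.25), so the numbers were not taken as pairs. The highest correlation was that of ChREBP 6 and GFP 6, which both carried skeletal muscle markers. The labels call the samples biological replicates. No array batch could be tested without scan dates, and the injected dose is not used here.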

Additional observations from a re-analysis of the deposited data

Results flagged for a closer look

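In 6 of the 72 groups of 6 arrays (36 genes in each virus group), 1 array stood far from the other 5 by Dixon's criterion, which chance meets in about 1 of 20 groups. In the ChREBP group, Crat and Ehhadh were highest on ChREBP 4, at 8.97 (8.66 to 8.76 on the others) and 11.02 (10.64 to 10.78). Acadl and Etfdh were highest on ChREBP 6, at 11.1 (10.83 to 10.89) and 10.77 (10.62 to 10.67). In the GFP group, Abcd2 was highest on GFP 3, at 7.57 (6.43 to 6.64), and Echs1 was lowest on GFP 6, at 10.09 (10.2 to 10.26). With the outlying array left out, the differences were 0.96 for Crat, 0.56 for Ehhadh, -0.09 for Acadl, -0.30 for Etfdh, 2.03 for Abcd2 and -0.23 for Echs1, and Acadl again missed the threshold (adjusted p = 0.20 in limma's test) while the other 5 passed it.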

How the results depend on the processing

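Each difference was recomputed under 22 alternatives. Of the 21 genes that passed the test, 15 kept the call and direction in all of them, and 6 lost the call in some (Acat1 in 6, Acox2 in 9, Bdh1 in 4, Crot and Slc25a20 in 2 each and Etfa in 1). Of the 15 that missed the threshold, 8 passed in some. The sign reversed in 5 genes that had not passed. These were Cpt1a (-0.0278 with median centring, -0.014 without ChREBP 4, -0.0279 without GFP 2 and -0.0066 without ChREBP 4 and ChREBP 5), Decr1 (-0.0201) and Abcd3 (-0.0289) with median centring, Acadl (0.0331) with quantile normalization repeated and Eci1 (0.0053) without ChREBP 1. With 1 array left out, Cpt1a ranged between -0.0279 and 0.0648 and Eci1 between -0.0547 and 0.0053. Between 16 and 25 of the 36 genes passed over all alternatives (4123 to 7789 of all genes), and 20 to 22 when 1 array was left out (4656 to 5632). The upper ends of the first 2 ranges came from different settings. The trended and the unmoderated fit gave 25 of the 36, with 5356 and 5068 of all genes, and median centring gave 23, with 7789. The replicate block, with the number as a term, gave 19 of the 36 genes (9 higher and 10 lower) and 4439 of all genes, and Acat1 and Bdh1 lost their calls under it. RMA values carry no measure of signal over background here.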
